A study of Mus musculus with 9 samples.

Results

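The muscarinic acetylcholine receptors, the G protein alpha subunits that several of them use, and the phospholipase C beta enzymes those subunits switch on were examined in hippocampal RNA of mice with different doses of IF1, the mitochondrial inhibitor of the ATP synthase. The genes were taken by name: every probe of the array annotated to *Chrm1*, *Chrm2*, *Chrm3*, *Chrm4*, *Gnaq*, *Gna11*, *Plcb1*, *Plcb2*, *Plcb3* or *Plcb4* was used, whatever its values. This gave 16 probes for 10 genes, of 39429 probes on the array. All 16 were among the 27993 probes, with 21906 gene names, that cleared the background mark on each of the 3 arrays of some genotype and were tested. For 6 genes there was 1 probe, and *Chrm1*, *Plcb1*, *Plcb2* and *Plcb4* had 2 or 3.

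Muscarinic receptors are the slower acting of the receptors for acetylcholine, which reaches the hippocampus through fibers from the basal forebrain and supports attention and memory. M1 and M3, the products of *Chrm1* and *Chrm3*, couple to the Gq class (*Gnaq*, *Gna11*), which activates phospholipase C beta. That enzyme splits a membrane inositol lipid into inositol trisphosphate, which releases stored calcium, and diacylglycerol, which activates protein kinase C. M2 and M4, the products of *Chrm2* and *Chrm4*, couple instead to the Gi/o class, and M2 acts in large part as a brake on acetylcholine release.

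The 9 arrays came from 3 mice each of the genotypes IF1-KO, control (CRL) and IF1-TG, 1 mouse per array, all male, 9 months old and labelled C57BL/6J. In IF1-KO mice, exon 3 of the floxed *Atp5if1* gene (*Atpif1* on the array) was deleted by Cre driven from the *Camk2a* promoter, that is, in forebrain neurons and among them chiefly the excitatory ones, so other cells keep the gene. IF1-TG mice carry human IF1 under a tetracycline-regulated element, driven by a transactivator under the same promoter. The floxed allele came from a C57BL/6NTac line, the human IF1 transgene from a B6.CBA line and the transactivator from a B6;CBA line, and mice were kept on C57BL/6J. In whole hippocampus, fewer cells of a type and less RNA per cell cannot be told apart.

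Values are log2 signals of the Cy3 dye relative to the 75th percentile of each array, so that 0 is the signal of the probe at that percentile and 1 unit is a doubling. A probe was called when limma gave a fold change of at least 1.5 (a log2 difference of 0.58) and an unadjusted *P* value below 0.05, the criteria of the study's methods, and Benjamini-Hochberg adjusted values are given beside. No member probe had an adjusted *P* below 0.05 in any comparison. An exact permutation test of 3 mice against 3 cannot give a *P* value below 0.1, so single values rest on the limma fit. The share of probes well above background was 71% to 72.9% on IF1-KO, 72.2% to 74.9% on CRL and 66.7% to 69.5% on IF1-TG arrays, and no spot was saturated. *Atpif1* had a log2 signal of 6.44 on the array labelled IF1-KO replicate 1, 5.20 on that of replicate 2 and 5.53 on that of replicate 3, against 6.19 to 6.34 in CRL and 6.39 to 6.51 in IF1-TG mice. The first of these thus showed no lower *Atpif1* signal, and the calls that use it are also given without it. Whether the probe lies in the deleted exon, and whether it detects human IF1, was not tested. Of the 3 slides, the first carried 2 IF1-TG mice (replicates 1 and 2), the second IF1-TG replicate 3 with IF1-KO replicate 1 and 2 CRL mice (replicates 1 and 2), and the third the remaining IF1-KO and CRL mice. No slide held IF1-TG mice together with IF1-KO replicates 2 and 3.

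The differences described next rest on 4 probes, whose 60 bases are shown because each value stands for this single stretch of the transcript. They are written 5′ to 3′ as the array annotation gives them, in lower case throughout since no base is singled out.
Chrm2 A_55_P2055284: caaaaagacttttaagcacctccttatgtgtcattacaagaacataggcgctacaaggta
Plcb4 A_55_P2121980: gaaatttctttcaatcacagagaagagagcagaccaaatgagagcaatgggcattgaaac
Plcb1 A_51_P284665: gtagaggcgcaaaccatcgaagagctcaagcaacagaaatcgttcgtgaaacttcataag
Plcb2 A_55_P1961444: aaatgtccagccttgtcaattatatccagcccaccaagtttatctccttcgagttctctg
On mm9, the *Chrm2* probe lies on the plus strand at chr6:36474550-36474609 and the *Plcb4* probe on the plus strand at chr2:135807797-135807856. The *Plcb1* probe lies on the plus strand at chr2:135190506-135190565 and the *Plcb2* probe on the minus strand at chr2:118542766-118542825. The annotation in the files gives a gene and a position for each probe but no exon or untranslated region, and an mm9 gene model was not used here.

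Between IF1-TG and IF1-KO mice, 2 of the 10 genes were called, *Chrm2* and *Plcb4*, both higher in IF1-TG. Of all tested gene names, 4.73% had a called probe in this comparison, and 2.24% had one called higher. By their brightest probes, 7 genes were higher and 3 lower in IF1-TG, with a median log2 difference of 0.06 against 0.01 over all genes. Against CRL, no gene was called in IF1-TG (5.6% of all gene names were) or in IF1-KO mice (1.35% were). At an unadjusted *P* below 0.05 alone, 4 of the 16 probes differed between IF1-TG and IF1-KO (7.15% of all tested probes), 3 between IF1-TG and CRL (8.46%) and 0 between IF1-KO and CRL (2.56%). The arrays of the genotypes did not overlap at 6, 4 and 1 of the 16 probes in these comparisons, against 13.7%, 12.2% and 7.95% of all tested probes. The *Plcb2* probe A_55_P1961444, which passed the filter only through IF1-KO and CRL, is in both kinds of count for each IF1-TG comparison.

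**Figure D1:**
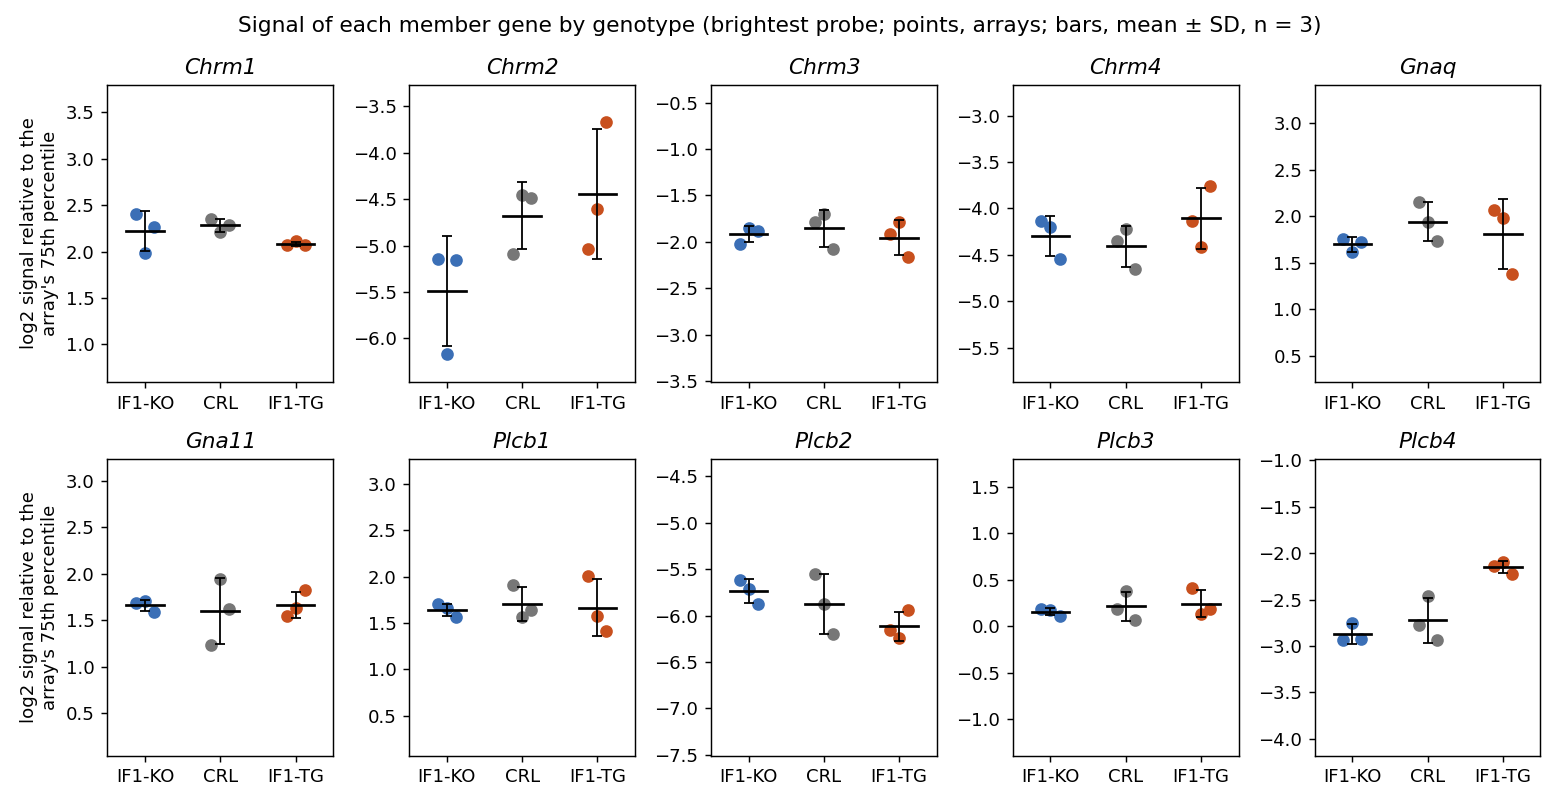
Log2 signal on the scale of the text, relative to the 75th percentile (vertical axis) for the brightest probe of each of the 10 genes, by genotype (horizontal axis). Points are arrays, and bars give the mean and SD of 3 mice; every panel spans the same number of log2 units. The 3 IF1-TG points of *Plcb4* lie between -2.22 and -2.09, above all others, and *Chrm2* has the widest spread within genotypes.

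Of the receptors, *Chrm2*, the Gi/o-coupled M2, was the one called. Its log2 signal was -5.14, -6.17 and -5.15 in IF1-KO replicates 1, 2 and 3, -5.09, -4.45 and -4.49 in CRL replicates 1, 2 and 3, and -5.04, -4.61 and -3.67 in IF1-TG replicates 1, 2 and 3. All 3 IF1-KO arrays lay below all CRL and IF1-TG arrays, although CRL replicate 1 and IF1-TG replicate 1 were only just above them. IF1-KO replicate 2 and IF1-TG replicate 3 were the extremes of the series. *Chrm2* was 2.07-fold higher in IF1-TG than IF1-KO mice (log2 difference 1.05, standard error 0.40, 95% interval 0.13 to 1.96, unadjusted *P* = 0.0292, limma adjusted *P* = 0.681). The difference was -0.81 between IF1-KO and CRL (standard error 0.40, unadjusted *P* = 0.0759) and 0.24 between IF1-TG and CRL (standard error 0.40, unadjusted *P* = 0.566), and neither was called. Mean levels thus ran IF1-KO, CRL, IF1-TG, with -5.49 ± 0.59, -4.68 ± 0.36 and -4.44 ± 0.70 (SD, n = 3), and the last pair did not differ beyond its spread.

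The call for *Chrm2* was lost when IF1-KO replicate 2 was dropped (log2 difference 0.71, unadjusted *P* = 0.109) and when IF1-TG replicate 3 was dropped (0.66, unadjusted *P* = 0.103). It held with the array labelled IF1-KO replicate 1 dropped (1.22), which also moved the difference between IF1-KO and CRL to -0.98, not called. With each array left out in turn, this difference from CRL ranged from -1.02 to -0.47 and was called in 1 of 9 cases. The size depended on the processing, from 0.62 (unadjusted *P* = 0.0122) after normexp background correction and quantile normalization to 1.74 (unadjusted *P* = 0.0169) with slide as a fixed block. On slide 2, the single IF1-TG array exceeded the single IF1-KO array by 1.47, the latter being replicate 1, which showed no lower *Atpif1* signal. Between IF1-TG and CRL, the difference was 0.97 (unadjusted *P* = 0.0973, not called) with slide as a fixed block and 1.1 on slide 2, without a test. The probe was dim, with a processed intensity of 32.8 to 122 over the 9 arrays, while the dimmest signals scored well above background ranged from 12 to 21.5 between arrays.

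The other receptors were not called. *Chrm1*, the main Gq-coupled muscarinic receptor of pyramidal neurons, had a log2 signal of 1.99 to 2.41 in IF1-KO, 2.21 to 2.35 in CRL and 2.07 to 2.11 in IF1-TG mice at its brightest probe. The IF1-TG arrays lay below all CRL arrays by a small margin (log2 difference -0.20, 95% interval -0.50 to 0.09, unadjusted *P* = 0.151) and within the range of IF1-KO (-0.14, interval -0.44 to 0.15). A second, dim *Chrm1* probe went the other way against CRL, by 0.10 for IF1-TG and 0.30 for IF1-KO (standard error 0.29 for both). *Chrm3*, the other Gq-coupled member, differed by -0.04 between IF1-TG and IF1-KO, with an interval of -0.38 to 0.29, and its arrays lay between -2.16 and -1.70 throughout. *Chrm4*, which couples to Gi/o, was 0.19 higher in IF1-TG than IF1-KO mice (interval -0.27 to 0.65) and 0.30 higher than in CRL (interval -0.16 to 0.76), and its arrays overlapped in each pair of genotypes. The intervals of *Chrm4* reach past a fold change of 1.5, so a difference of that size cannot be told from none here. The probe of *Chrm5*, the remaining muscarinic receptor, was well above background on 1 of 9 arrays and was not tested.

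The alpha subunits of the Gq class showed no call. *Gnaq* had log2 signals of 1.61 to 1.76 in IF1-KO, 1.73 to 2.15 in CRL and 1.38 to 2.07 in IF1-TG mice. Its difference was 0.11 between IF1-TG and IF1-KO (interval -0.34 to 0.56), -0.13 between IF1-TG and CRL (interval -0.58 to 0.32) and -0.25 between IF1-KO and CRL (interval -0.70 to 0.20). IF1-TG replicate 3 was the lowest array of the series for *Gnaq*, and with slide as a fixed block *Gnaq* was called lower in IF1-TG than in CRL (-0.63, unadjusted *P* = 0.00907). *Gna11*, the close relative of *Gnaq*, differed by 0.00 between IF1-TG and IF1-KO, with an interval of -0.41 to 0.41, and by 0.07 in both comparisons with CRL. For both genes, the range among the 3 CRL mice and that among the 3 IF1-TG mice were wider than any difference between genotype means.

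**Figure D2:**
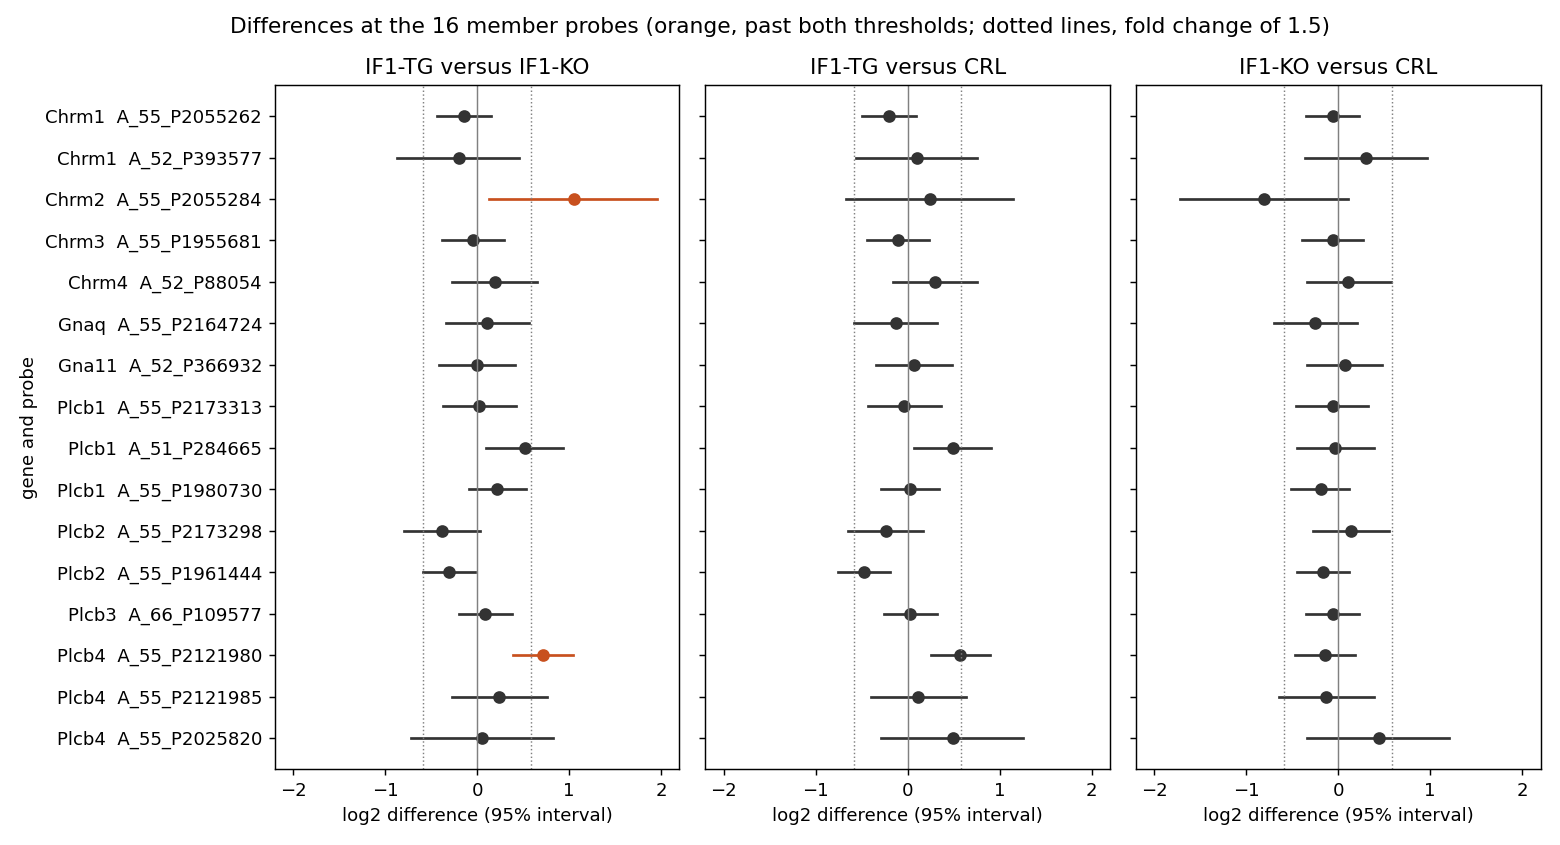
Log2 differences (horizontal axis) at each of the 16 probes (vertical axis) in the 3 comparisons, with 95% intervals from limma. Dotted lines mark a fold change of 1.5, and orange marks the probes past both thresholds, *Chrm2* at 1.05 and *Plcb4* A_55_P2121980 at 0.72, both in IF1-TG versus IF1-KO.

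Among the phospholipase C beta genes, only *Plcb4* was called, at 1 of its 3 probes. At its brightest probe, the log2 signal was -2.94, -2.75 and -2.92 in IF1-KO replicates 1, 2 and 3, -2.77, -2.46 and -2.94 in CRL replicates 1, 2 and 3, and -2.14, -2.09 and -2.22 in IF1-TG replicates 1, 2 and 3. All 3 IF1-TG arrays lay above the other 6, and IF1-KO and CRL overlapped. *Plcb4* was 1.64-fold higher in IF1-TG than IF1-KO mice (log2 difference 0.72, standard error 0.14, 95% interval 0.39 to 1.04, unadjusted *P* = 0.000837, limma adjusted *P* = 0.55). Against CRL it was 1.49-fold higher (log2 difference 0.57, standard error 0.14, unadjusted *P* = 0.00341, adjusted *P* = 0.385), just short of the fold threshold. The difference between IF1-KO and CRL was -0.14 (interval -0.47 to 0.18). Leaving out each array in turn gave 0.68 to 0.78 between IF1-TG and IF1-KO, called in 9 of 9, and the array labelled IF1-KO replicate 1 gave the 0.68 when left out. Dropping a CRL array left this difference at 0.72. The difference from CRL was 0.46 to 0.70 with each array left out, called without CRL replicate 2 (0.70) or IF1-TG replicate 3 (0.61) and lowest without CRL replicate 3. It was 0.39 (unadjusted *P* = 0.0764) with the mean of the *Plcb4* probes and 0.47 (unadjusted *P* = 0.0707) with slide as a fixed block.

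The 3 *Plcb4* probes did not move alike. A_55_P2121980 was the brightest only through its IF1-TG values, with a mean of -2.15 there against -2.55 for A_55_P2121985. In IF1-KO (-2.87 against -2.79) and CRL (-2.72 against -2.67) it was the dimmer of the pair. The choice of probe thus used the genotype in which it was high. The probe 31 kb further along the chromosome, A_55_P2121985, read -2.87, -2.58 and -2.93 in IF1-KO, -2.95, -2.58 and -2.46 in CRL, and -2.57, -2.13 and -2.95 in IF1-TG replicates 1, 2 and 3. There IF1-TG replicate 2 was the highest array but IF1-TG replicate 3, with CRL replicate 1, was the lowest, and the difference between IF1-TG and IF1-KO was 0.24 (standard error 0.23, unadjusted *P* = 0.312). The third probe, A_55_P2025820, stands for the separate cDNA AK036896 and lies 320 kb before the brightest one. It gave 0.05 between IF1-TG and IF1-KO (standard error 0.34) and 0.44 between IF1-KO and CRL (standard error 0.34), with CRL arrays from -4.60 to -3.41. With the mean of the 3 probes in place of the brightest, the *Plcb4* difference between IF1-TG and IF1-KO was 0.34 (unadjusted *P* = 0.118) and was not called. With slide as a fixed block it was 0.58 (unadjusted *P* = 0.0465), at the edge of the fold threshold and not called, and on slide 2 alone the IF1-TG array exceeded the IF1-KO array by 0.72. That IF1-KO array was replicate 1, which showed no lower *Atpif1* signal.

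Thalamic neurons are known for abundant *Plcb4*, so 9 thalamus marker genes were read beside it. All 9 were tested, and their summed signal, as a multiple of the 75th percentile, was 5.09 to 6.41 in IF1-KO, 5.36 to 7.49 in CRL and 6.73, 15 and 5.25 in IF1-TG replicates 1, 2 and 3. IF1-TG replicate 2 stood apart, while IF1-TG replicate 3 was among the lowest. By their brightest probes, 8 of the 9 markers were higher in IF1-TG than IF1-KO mice and 6 were higher than in CRL, with medians of 0.32 and 0.23. *Tcf7l2*, a transcription factor, was called higher in IF1-TG at a dimmer probe, by 1.34 against IF1-KO (standard error 0.39, unadjusted *P* = 0.00778) and 1.11 against CRL (unadjusted *P* = 0.0197), with all IF1-TG arrays above the others, while its brightest probe gave 0.07 and 0.30. The *Tcf7l2* difference from IF1-KO was 1.45 with the array labelled IF1-KO replicate 1 dropped, the call against CRL was lost without CRL replicate 3 (0.84) or IF1-TG replicate 2 (0.68), and slide as a fixed block gave 0.52 and 0.47, not called. *Lef1*, also a transcription factor, was called higher in IF1-TG than in CRL (0.68, standard error 0.27, unadjusted *P* = 0.0348), with arrays that overlapped, and was 0.61 higher than in IF1-KO, not called. The *Lef1* call was lost without CRL replicate 1 (0.55) or 3 (0.52), without IF1-TG replicate 1 (0.48) or 2 (0.67) with slide as a fixed block (0.19) and in a fit of only these genotypes (0.68, unadjusted *P* = 0.067). Without IF1-TG replicate 2, *Plcb4* was 0.69 higher in IF1-TG than IF1-KO mice (unadjusted *P* = 0.00377) and *Chrm2* was 1.13 higher (unadjusted *P* = 0.0448). The part of thalamic RNA in the *Plcb4* and *Chrm2* values was not tested.

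*Plcb1*, the most studied phospholipase C beta of the hippocampus, did not differ at its brightest probe. There the IF1-TG arrays spanned 1.41 to 2.01 around the 1.57 to 1.70 of IF1-KO and the 1.56 to 1.91 of CRL, and the difference between IF1-TG and IF1-KO was 0.02 (interval -0.37 to 0.42). At the *Plcb1* probe A_51_P284665, shown above, the log2 signal was 0.19, -0.11 and 0.50 in IF1-KO, 0.35, 0.29 and 0.03 in CRL, and 0.69, 0.54 and 0.92 in IF1-TG replicates 1, 2 and 3. All IF1-TG arrays were above all others at this probe, which was 1.44-fold higher than in IF1-KO (log2 difference 0.52, standard error 0.18, unadjusted *P* = 0.0203) and 1.41-fold higher than in CRL (0.49, standard error 0.18, unadjusted *P* = 0.0261), below the fold threshold in both. It passed that threshold against IF1-KO when IF1-KO replicate 3 (0.67) or, in turn, IF1-TG replicate 2 (0.61) was dropped and after normexp correction (0.67). It was 0.37 (unadjusted *P* = 0.076) without IF1-KO replicate 2, 0.42 (unadjusted *P* = 0.071) without IF1-TG replicate 3 and 0.63 (unadjusted *P* = 0.0661) with slide as a fixed block. Against CRL it was 0.39 to 0.58 with each array left out, and 0.65 (unadjusted *P* = 0.046) with slide as a fixed block, where it was called. The remaining probe, A_55_P1980730, gave 0.22 between IF1-TG and IF1-KO (unadjusted *P* = 0.147) and 0.03 between IF1-TG and CRL.

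*Plcb2*, known mainly from blood cells and taste cells, had lower values in IF1-TG mice at both of its probes. At probe A_55_P1961444 the log2 signal was -6.46, -6.45 and -6.43 in IF1-KO, -6.11, -6.24 and -6.49 in CRL, and -6.67, -6.73 and -6.85 in IF1-TG replicates 1, 2 and 3. All IF1-TG arrays were below all others, with a log2 difference of -0.47 from CRL (standard error 0.13, unadjusted *P* = 0.00485) and -0.31 from IF1-KO (standard error 0.13, unadjusted *P* = 0.0379), and neither reached the fold threshold. With the array labelled IF1-KO replicate 1 dropped, the latter was -0.31 (unadjusted *P* = 0.0727). This probe was well above background on only 1 of the 3 IF1-TG arrays, with processed intensities of 13.4 to 29.9 over the series. It passed the filter only through IF1-KO and CRL, where it was higher, so its *P* values are no support for a difference. With trend and robust options in eBayes, the unadjusted *P* was 0.0696 against CRL and 0.214 against IF1-KO. After normexp correction the difference from CRL was -0.13 (unadjusted *P* = 0.218) and that from IF1-KO was -0.06 (unadjusted *P* = 0.599). With slide as a fixed block, the probe was called lower than in CRL (-0.62, unadjusted *P* = 0.00913). The brighter *Plcb2* probe gave -0.38 between IF1-TG and IF1-KO (unadjusted *P* = 0.0637), also without overlap, and -0.24 between IF1-TG and CRL (unadjusted *P* = 0.216). Between IF1-KO and CRL the probes had opposite signs, 0.14 and -0.16. The summed signal of 9 microglia markers, all tested, was 52.5 to 59.9 in IF1-KO, 60.9 to 67.5 in CRL and 63.6 to 72.6 in IF1-TG mice. Their mean log2 signal overlapped between the genotypes, at 1.77 to 1.83 in IF1-KO, 1.71 to 1.94 in CRL and 1.79 to 1.99 in IF1-TG mice. The part of microglial RNA in the *Plcb2* values was not tested.

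*Plcb3*, which is widely expressed across tissues, had log2 signals between 0.07 and 0.41 on all 9 arrays. Its differences were 0.09, 0.03 and -0.06 in the 3 comparisons (standard error 0.13), and all 3 intervals lay within a fold change of 1.5.

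**Figure D3:**
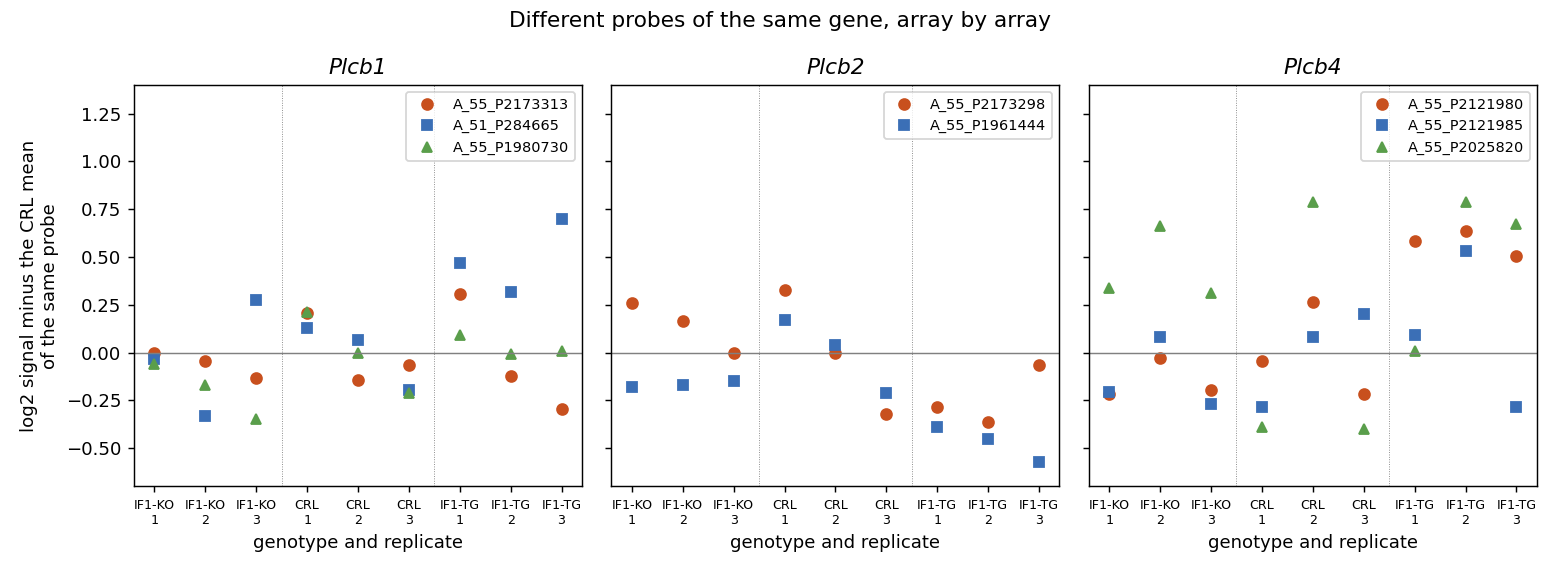
Log2 signal of each probe minus the CRL mean of the same probe (vertical axis) on each of the 9 arrays (horizontal axis) for *Plcb1*, *Plcb2* and *Plcb4*, with 1 symbol per probe. Both *Plcb2* probes lie below 0 on all IF1-TG arrays, whereas the *Plcb1* and *Plcb4* probes part from each other, with *Plcb4* A_55_P2121985 below 0 on the IF1-TG replicate 3 array where A_55_P2121980 is above it.

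The rest of the pathway was read from lists of 124 genes, of which 119 were tested. Of these, 2 had a called probe between IF1-TG and IF1-KO (1.68%, against 4.73% of all gene names), 3 between IF1-TG and CRL (2.52%, against 5.6%) and 2 between IF1-KO and CRL (1.68%, against 1.35%). The medians of the lists lay between -0.13 and 0.15 in all comparisons.

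Upstream, 1 of 7 genes for making, loading, taking up or breaking down acetylcholine was called, *Chat*, the enzyme that makes acetylcholine. Its log2 signal was -6.04, -6.17 and -6.24 in IF1-KO replicates 1, 2 and 3, -5.05, -5.20 and -4.80 in CRL replicates 1, 2 and 3, and -4.91, -5.55 and -5.00 in IF1-TG replicates 1, 2 and 3. All IF1-KO arrays lay clearly below all others, and CRL and IF1-TG overlapped. *Chat* fell by 1.13 on the log2 scale in IF1-KO relative to CRL mice (standard error 0.19, unadjusted *P* = 0.000256, limma adjusted *P* = 1) and was 1.00 higher in IF1-TG than in IF1-KO (standard error 0.19, unadjusted *P* = 0.000607, adjusted *P* = 0.515). It was called with each array left out in turn in both comparisons, at -1.18 and 1.05 with the array labelled IF1-KO replicate 1 dropped. IF1-KO minus CRL was -0.91 on slide 2, where replicate 1 was the only IF1-KO array, and -1.40 on slide 3. The signal was dim, at 27.2 to 96.1, and after normexp correction the differences were -0.49 and 0.48 and not called. Striatum is rich in *Chat*, and the summed signal of 8 striatum markers, all tested, was 13.1 to 14.1 in IF1-KO, 16, 14.1 and 23.8 in CRL replicates 1, 2 and 3 and 11.1 to 16.2 in IF1-TG mice. By their brightest probes, 7 of the 8 had lower values in IF1-KO than in CRL and *Pde10a* differed by 0.00, with a median of -0.36. In IF1-TG relative to CRL, 7 were lower and 1 higher, with a median of -0.38. Between IF1-TG and IF1-KO, 5 were higher and 3 lower, with a median of 0.02. *Adora2a*, an adenosine receptor, was called (-1.16, standard error 0.41, unadjusted *P* = 0.0212), also with the array labelled IF1-KO replicate 1 dropped (-1.24) but not without IF1-KO replicate 3 (-1.08). With each array left out in turn, this difference ranged from -1.49 to -0.63. *Adora2a* was called lower in IF1-TG than in CRL as well (-0.96, unadjusted *P* = 0.0466), where *Chat* differed by -0.13. That *Adora2a* call was lost without CRL replicate 3 (-0.43), without IF1-TG replicate 1 (-0.86) or 2 (-0.85), without any one IF1-KO array (-0.96) and in 5 other alternatives, among them slide as a fixed block (-0.31) and normexp correction (-0.66). The part of striatal RNA in the *Chat* values was not tested. The vesicular acetylcholine transporter *Slc18a3*, whose gene lies within the *Chat* locus, was -0.56 in IF1-KO and -0.60 in IF1-TG mice relative to CRL, not called in either. The choline transporter *Slc5a7* differed by 0.06 between IF1-KO and CRL and was -0.22 in IF1-TG relative to IF1-KO mice (standard error 0.59 for both), not called in either. By their brightest probes, 4 of the 7 genes were higher and 3 lower in IF1-KO than in CRL, with a median of 0.06.

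Beside the muscarinic receptors, 22 of 26 other Gq-coupled receptors were tested. *Hrh1*, the histamine H1 receptor, was called lower in IF1-TG at 1 of its 3 probes, A_55_P2034081, by -0.93 against IF1-KO (standard error 0.28, unadjusted *P* = 0.00929) and -0.73 against CRL (unadjusted *P* = 0.0298). Its brightest probe gave 0.40 and -0.25 and the remaining one -0.38 and -0.39, none of them called. At the called *Hrh1* probe, the difference from IF1-KO was -1.15 with the array labelled IF1-KO replicate 1 dropped, slide as a fixed block gave -0.03 and 0.02, and normexp correction gave -0.40 and -0.26, not called. This probe was dim, at 22.4 to 88.8. Against CRL, the *Hrh1* call was lost with CRL replicate 3 dropped (-0.62), and likewise with IF1-TG replicate 1 (-0.64) or 2 (-0.53) dropped. *Grm5*, a metabotropic glutamate receptor, was called 0.75 higher in IF1-KO than in CRL at a dimmer probe (standard error 0.21, unadjusted *P* = 0.00717) and by 0.80 with the array labelled IF1-KO replicate 1 dropped. At the called *Grm5* probe, IF1-TG was 0.57 higher than CRL (unadjusted *P* = 0.0262), just short of the fold threshold, and differed by -0.18 from IF1-KO. The brightest *Grm5* probe differed by 0.04 between IF1-KO and CRL and the remaining one by 0.09. None of 25 other G protein subunits, regulators of G protein signaling, receptor kinases and arrestins was called in any comparison.

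Downstream, none of 10 genes of the inositol trisphosphate branch, 12 of inositol lipid supply and 10 other phospholipases C was called in any comparison. Of the trisphosphate branch, *Itpr2*, a calcium release channel, was 0.51 higher in IF1-TG than IF1-KO mice (unadjusted *P* = 0.0154) without reaching the fold threshold. In the diacylglycerol branch, 1 of 23 genes was called, *Prkce*, a protein kinase C, between IF1-TG and CRL. *Prkce* read -1.16, -1.19 and -0.82 in IF1-KO, -1.25, -1.10 and -1.64 in CRL, and -0.38, -1.04 and -0.26 in IF1-TG replicates 1, 2 and 3, a difference of 0.77 from CRL (standard error 0.23, unadjusted *P* = 0.0104, limma adjusted *P* = 0.486). IF1-TG replicates 1 and 3 were the high arrays, IF1-TG replicate 2 was close to CRL replicate 2, and the call held with each array left out (0.61 to 1.01). In the Gi/o list, the route of M2 and M4, 1 of 10 genes was called, *Gnao1*, which was 0.61 higher in IF1-TG than in CRL at a dimmer probe (standard error 0.24, unadjusted *P* = 0.0315). Its brightest probe gave 0.39, without CRL replicate 1, where the spot was an outlier and was dropped. The *Gnao1* call was lost with CRL replicate 2 (0.63) or 3 (0.42) dropped, and likewise with IF1-TG replicate 1 (0.55) or 3 (0.47) dropped. It was also lost after normexp correction (0.32) and in a fit of only these genotypes (0.61, unadjusted *P* = 0.0556).

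**Figure D4:**
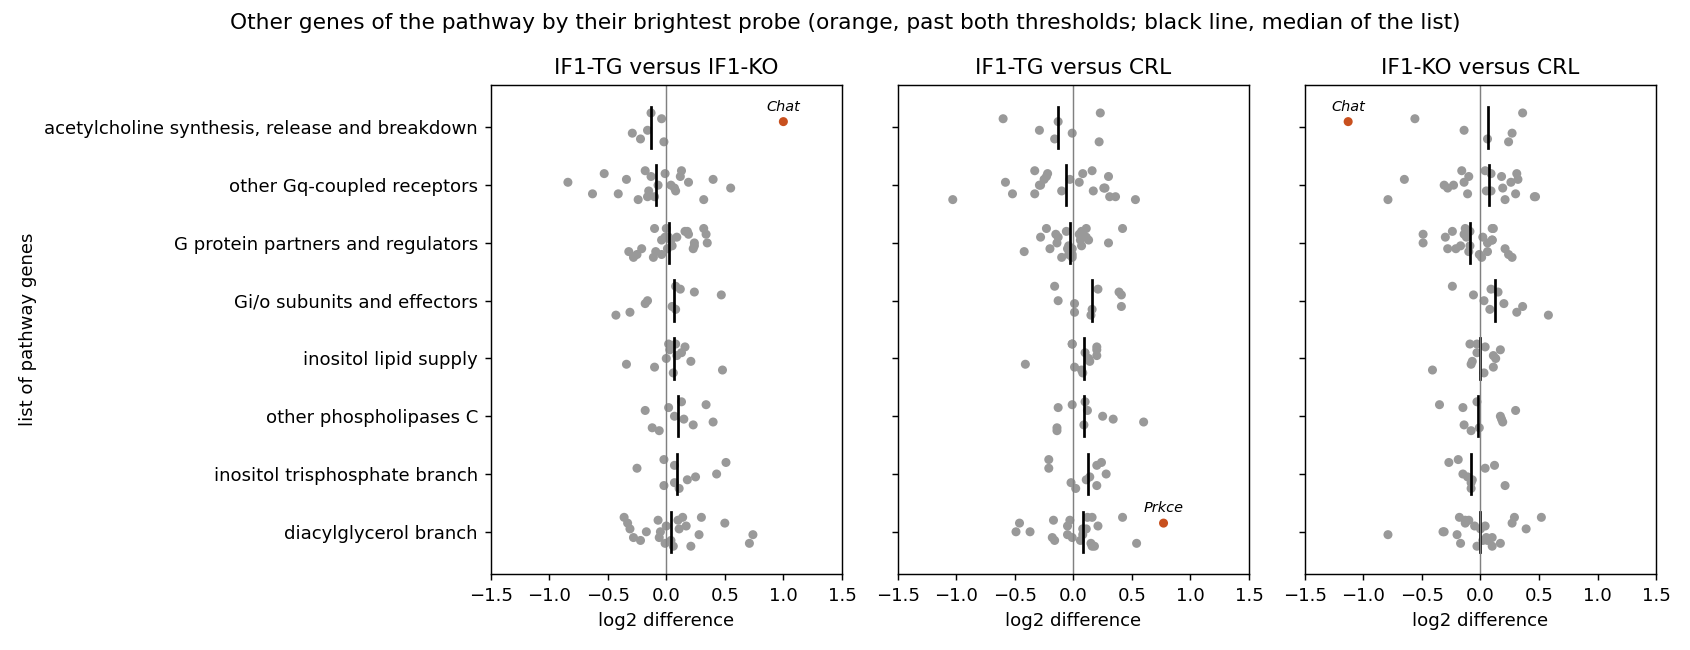
Log2 difference (horizontal axis) of each tested pathway gene by its brightest probe in 8 lists (vertical axis) and 3 comparisons; points are genes, black lines list medians and orange points genes past both thresholds. *Chat* is lower in IF1-KO than in CRL and higher in IF1-TG than in IF1-KO, *Prkce* is higher in IF1-TG than in CRL, and the medians stay between -0.13 and 0.15.

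The genes whose pattern over the 9 arrays was closest to that of *Chrm2* and *Plcb4* were found by the root mean square difference of centred log2 values, among 15528 named genes. For *Chrm2*, these were *Gm15796* (0.31), *Unc13c* (0.36), a presynaptic vesicle priming factor, and *Kcne1l* (0.36), against a median of 0.67 over all candidates. The likeness was partial, since the root mean square of the centred *Chrm2* values was 0.65. Between IF1-TG and IF1-KO, *Gm15796* differed by 0.38 (standard error 0.41), *Kcne1l* by 0.42 (standard error 0.32) and *Unc13c* by 0.88 (standard error 0.28). For *Plcb4*, they were *Stk38l* (0.11), a kinase, *Nol9* (0.12), of the nucleolus, and *Dbp* (0.13), a circadian transcription factor, against a median of 0.38.

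The calls for *Chrm2* and *Plcb4* were then set against each processing of the same arrays. Each of them was called in 17 of the 19 alternatives that give a test. Many of these could not move the difference itself, which stayed at 1.05 for *Chrm2* and 0.72 for *Plcb4*. They were each CRL array left out, both other filters, the replicate block, the fit of only these genotypes and the trend and robust options. Such alternatives changed only the error, so the count says little about the size.

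**Figure D5:**
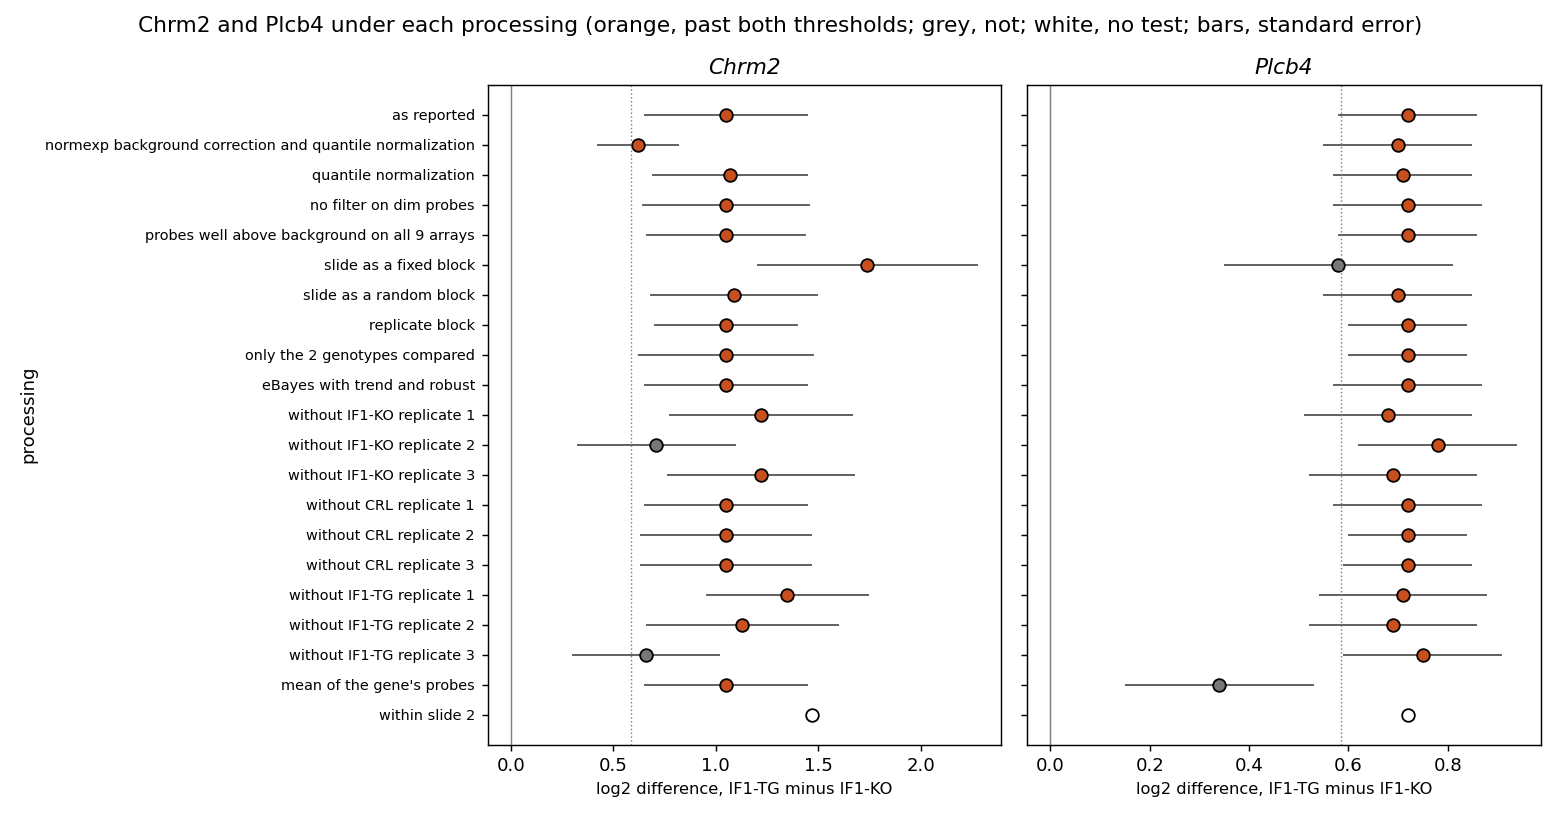
Log2 difference between IF1-TG and IF1-KO mice (horizontal axis) of *Chrm2* and *Plcb4* under each processing (vertical axis), with standard errors. Orange marks values past both thresholds, grey values that were not and white a difference between single arrays with no test; *Chrm2* is grey where IF1-KO replicate 2 and where IF1-TG replicate 3 was dropped, and *Plcb4* is grey with slide as a fixed block and with the mean of its probes.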

How the data were processed

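Total RNA from the hippocampus of 9 mice was labelled with Cy3 and hybridized to Agilent mouse 4x44K v2 arrays, with 1 colour and 1 mouse per array. The authors deposited the processed spot intensity of Agilent Feature Extraction 10.7.3.1, background-subtracted within each array and not normalized between arrays, and the mean and local background intensity used for an alternative. The normalization used in the study is not given in the sources used here, and its processing notes name limma.

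Log2 processed intensities were expressed relative to the 75th percentile of each array. Control and outlier spots were left out. A probe was tested if every array of some genotype had it well above background. All 9 arrays entered a limma 3.58.1 fit (R 4.3.3) with genotype and eBayes, adjusted over all 27993 probes, which was tested on simulated data with known differences. A gene is given by its probe with the highest mean signal and counted as called if any of its probes was. Of 21906 gene names, 17100 matched a RefSeq symbol or synonym. Sequences and mm9 positions of probes were taken from the deposited annotation. The correlation between replicates was 0.983 to 0.992. Precision is limited by the 9 arrays. The labels say that the mice of a genotype are separate animals.

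The genes named are the 10 members, *Atpif1*, pathway genes with a called probe and the 3 genes closest in pattern to each called member, while *Chrm5*, *Slc18a3*, *Slc5a7*, *Itpr2*, *Tcf7l2*, *Lef1*, *Pde10a* and *Adora2a* were chosen after seeing their values. The members and lists were chosen with earlier results of these data known. A list of pathway genes is not reported here. The alternatives were each array left out in turn, differences within a slide, the mean over the probes of a gene, a replicate block, a slide block (fixed, or random by duplicateCorrelation), fits of 2 genotypes only, trend and robust options in eBayes, quantile normalization with or without normexp correction (offset 50), and no filter or a stricter one (all 9 arrays).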

Additional observations from a re-analysis of the deposited data

How the results depend on the processing

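Of the member genes, 2 were called between IF1-TG and IF1-KO. After normexp correction *Plcb1* was called in addition (0.67, at A_51_P284665). The count was 1 with slide as a fixed block (*Chrm2*) and 1 with the mean of a gene's probes (*Chrm2*), and it ranged from 1 to 3 with each array left out, *Plcb4* alone with IF1-KO replicate 2 dropped, and likewise with IF1-TG replicate 3 dropped, and *Plcb1* in addition with IF1-KO replicate 3 dropped, and likewise with IF1-TG replicate 2 dropped. Between IF1-TG and CRL the count of 0 became 3 with slide as a fixed block (*Gnaq* -0.63, *Plcb1* 0.65 and *Plcb2* -0.62, the latter pair at their dimmer probes), and 0 to 1 with arrays left out, *Plcb4* without CRL replicate 2 or IF1-TG replicate 3. Between IF1-KO and CRL the count of 0 became 1 in a fit of only these genotypes (*Chrm2*, -0.81, unadjusted *P* = 0.0437), and 0 to 1 with arrays left out, *Chrm2* without IF1-TG replicate 3 and *Plcb4* at A_55_P2025820 (0.83) without CRL replicate 2. Pathway genes called between IF1-TG and IF1-KO numbered 2, against 0 after normexp correction, 6 with slide as a fixed block, 1 with the mean of probes and 2 to 7 with arrays left out, 7 and 4 with IF1-TG replicates 2 and 3 dropped in turn, and 6 and 5 with IF1-KO replicates 1 and 3 dropped in turn. Between IF1-TG and CRL they numbered 3, against 1 after normexp correction, 8 with slide as a fixed block, 1 with the mean of probes and 3 to 7 with arrays left out, 7 without IF1-TG replicate 2 and 6 without CRL replicate 2. Between IF1-KO and CRL they numbered 2, against 1 with the mean of probes and 2 to 9 with arrays left out, 9 without CRL replicate 3. Signs of small differences that were not called turned in several cases. Between IF1-TG and IF1-KO these were *Chrm3* 0.08, *Gna11* -0.11, *Plcb1* -0.15 and *Plcb2* 0.00 after normexp correction, *Gna11* -0.02 after quantile normalization, and *Gnaq* -0.45, *Plcb1* -0.29 and *Plcb3* -0.05 with slide as a fixed block. Between IF1-TG and CRL they were *Gna11* -0.03 after normexp correction, *Plcb3* -0.07 with slide as a fixed block, *Plcb1* 0.16 with the mean of probes, and the *Hrh1* probe 0.02 with slide as a fixed block, which had been called. Between IF1-KO and CRL they were *Chrm4* -0.11 and *Plcb2* -0.03 after normexp correction, and *Chrm1* 0.12, *Plcb2* -0.01 and *Plcb4* 0.05 with the mean of probes. With arrays left out, ranges that crossed 0 between IF1-TG and IF1-KO were *Chrm3* -0.13 to 0.06, *Gnaq* -0.02 to 0.33, *Gna11* -0.08 to 0.07 and *Plcb1* -0.15 to 0.15. Between IF1-TG and CRL they were *Chrm2* -0.15 to 0.54, *Gnaq* -0.26 to 0.08, *Gna11* -0.11 to 0.25, *Plcb1* -0.21 to 0.09 and *Plcb3* -0.05 to 0.11. Between IF1-KO and CRL they were *Chrm1* -0.15 to 0.06, *Chrm3* -0.17 to 0.02, *Chrm4* -0.01 to 0.24, *Gna11* -0.11 to 0.24, *Plcb1* -0.13 to 0.04, *Plcb2* -0.02 to 0.31 and *Plcb3* -0.13 to 0.03. The cause of these changes was not tested. Same-numbered mice did not deviate together (correlations -0.165 to 0.116), so the replicate number was not taken as a pairing, and the replicate block gave *Chrm2* 1.05 (unadjusted *P* = 0.0232) and *Plcb4* 0.72 (unadjusted *P* = 0.000947) and changed no member call. The signals of *Chrm2*, *Plcb2*, *Chat* and the *Hrh1* probe were close to the dimmest scored well above background.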
